A study of Homo sapiens with 8 samples.

Results

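The genes described here are 55 human genes known as interferon-stimulated genes, chosen by symbol from a list and read in every tumour of the series. Of the 55, 54 were analysed here by a row of their own in the 8 count files, and 53 had enough reads to be tested among the 16219 genes tested in all. The material was RNA from 8 xenografts, which are tumours grown in mice, here from H2122 cells, an established line of human lung cancer. The 4 parental tumours carry the genotype label WT, the 4 knockout tumours the label SMARCA4 KO, and every animal had received vehicle only. The sources used here do not say whether the knockout cells were 1 clone or a pool, which mouse strain was the host and at what age, or whether mouse reads were removed before counting.

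Interferons are secreted proteins that warn cells of infection. A type I or type III interferon binds its receptor, kinases of the JAK family phosphorylate STAT proteins, STAT2 among them, and a STAT pair joins IRF9 to form a factor that binds the interferon-stimulated response element in the promoters of its target genes. Interferon gamma acts through the gamma-activated site and through IRF1. The targets encode antiviral effectors, and some of them feed back on the pathway itself. Tumour cells and the immune and stromal cells around them can all express these genes. In a xenograft the surrounding cells are mouse cells. SMARCA4, the gene deleted here, encodes an ATPase that drives SWI/SNF chromatin remodelling complexes.

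Promoter sequence was read first, because the response element is what these genes are known to share and the list was chosen by symbol and not by sequence. RefSeq (GRCh38.p14) promoter windows from 250 bases before to 50 bases after the gene start were matched by symbol to 42 of the 54 members. No window was matched for IRF7, USP18, IFIT2, OAS2, OASL, MX2, GBP2, APOBEC3G, TRIM22, APOL1, APOL2 or LY6E. The core of the response element, which reads GAAA, any 2 bases, GAAA on either strand, was found in 27 of the 42 windows (64.3%, exact binomial 95% interval 48.0% to 78.4%), against 3.65% of 27305 windows in the table. A longer core, GAAAC, any base, GAAA, every match of which is also a match of the first, was found in 19 (45.2%) against 0.769%. The gamma-activated site TTCNNNGAA, which reads the same on both strands, was found in 10 (23.8%, interval 12.1% to 39.5%) against 7.88%. Among windows of members tested, the core was present in 7 of 11 called lower in knockout tumours, both of the 2 called higher and 17 of 28 without a call. A match describes the letters of a window and does not show that a factor binds there.

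The stretches below are 30 bases long, lie before the RefSeq gene start on the strand of the gene, and hold the match nearest to the start. They are shown for members of the main patterns: the usual reference gene ISG15, the variable IFIT1, the neighbours IFI44L and IFI44, the neighbours DDX60L and DDX60, 3 further members that were lower (GBP1, RTP4 and ISG20) and EPSTI1, which was higher. Capitals mark the core, which begins and ends with TTTC where the match is on the other strand.
ISG15 (chr1:1013380-1013409, plus strand): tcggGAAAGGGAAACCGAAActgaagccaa
IFIT1 (chr10:89392510-89392539, plus strand): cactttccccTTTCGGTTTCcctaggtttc
IFI44L (chr1:78620365-78620394, plus strand): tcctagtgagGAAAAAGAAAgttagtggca
IFI44 (chr1:78649759-78649788, plus strand): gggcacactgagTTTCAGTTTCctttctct
DDX60L (chr4:168480523-168480552, minus strand): gtggagaaaaGAAACCGAAActaactccct
DDX60 (chr4:168318786-168318815, minus strand): gaggagaaagGAAACCGAAActcccgccgg
GBP1 (chr1:89065316-89065345, minus strand): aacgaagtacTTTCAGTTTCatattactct
RTP4 (chr3:187368355-187368384, plus strand): gaaccgaacaccGAAACTGAAActgtttgt
ISG20 (chr15:88638937-88638966, plus strand): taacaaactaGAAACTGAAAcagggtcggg
EPSTI1 (chr13:42992272-42992301, minus strand): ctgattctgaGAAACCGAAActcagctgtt
The 2 overlapping matches in ISG15 run together. DDX60L and DDX60 carry the same 10 letters, GAAACCGAAA, at 50 and 53 bases before their starts. These letters are not particular to that pair, since EPSTI1 and ISG15 hold them too, as does IFIT1 on the other strand.

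Each library held 19785922 to 23191698 gene counts, and depth did not separate the groups. Levels are given as CPM, counts scaled to a common library size. SMARCA4 stood at 198 to 235 CPM in the parental tumours and at 22.3 to 31.1 CPM in the knockout tumours, and no library went against its label (log2 fold change -3.02, SE 0.117, edgeR adjusted p = 1.45e-07). The 7 epithelial markers EPCAM, KRT7, KRT8, KRT18, KRT19, CDH1 and MUC1, which a lung carcinoma should express, summed to 6599 to 8814 CPM, and KRT7 and KRT19 among them were lower in knockout tumours. The 10 leukocyte markers (PTPRC, TYROBP, FCER1G, LAPTM5, CSF1R, CD68, CD14, AIF1, ITGAM and CORO1A) summed to 11.8, 64.6, 51.0 and 9.69 CPM in parental replicates 1 to 4 and to 15.7 to 29.8 CPM in the knockout tumours. None of the 10 was at 0 in all libraries, and 0 of the 8 tested was called. Parental replicates 2 and 3 thus had the highest counts of leukocyte markers of the 8 tumours, which recurs below. Leukocytes and stroma of a xenograft come from the mouse, whereas the counts are of human gene symbols. Mouse reads and reads of the tumour cells cannot be told apart in these counts, for markers or for members. In bulk tissue, fewer cells of a type and less RNA per cell cannot be told apart.

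Knockout tumours had lower levels of a subset of the interferon-stimulated genes and not of the list as a whole. Of 53 members tested, 15 fell, 2 rose and 36 had no call (edgeR quasi-likelihood test, adjusted p under 0.05 over all 16219 genes). The 17 called members are 32.1% of those tested, close to the 27.0% called among all genes, so the number of calls by itself sets the list apart little. Their direction was uneven: 28.3% of members were called lower, against 14.1% of all genes, and 3.77% were called higher, against 13.0%. The largest falls were those of IFI44L, UBE2L6, RTP4, MX2, LY6E and GBP1, to between 17.7% and 33.3% of the parental level, while EPSTI1 and DDX60L rose 1.76-fold and 1.58-fold.

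The log2 fold change was negative for 41 of the 53 members (77.4%, against 49.5% of all genes). Its median was -0.36, against 0.00 over all genes tested. That median depended on parental replicate 2, without which it was -0.11. Without parental replicates 2 and 3 together, an analysis chosen after the data were seen, it was -0.02, with 10 members called lower, 6 higher and 12 calls shared with the fit on all tumours. The shares of all genes called in that fit are not given here. That smaller set of tumours lost UBE2L6, HERC6, SP110, SAMD9L and APOL1 and added IRF9, IFI35, XAF1 and APOL2 as higher. The 4 knockout values lay wholly below the 4 parental values for 13 members (24.5%, against 15.3% of all genes) and wholly above for 1 (1.89%, against 14.0%). The 12 members HERC6, MX2, GBP1, GBP2, ISG20, DDX60L, DTX3L, TRIM21, SP110, IFI44L, PLSCR1 and LY6E were called in the fit on all tumours and in each of the 16 alternatives set for this test. RTP4 was called in all 15 alternatives that tested it, and the stricter filter left it untested.

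**Figure D1:**
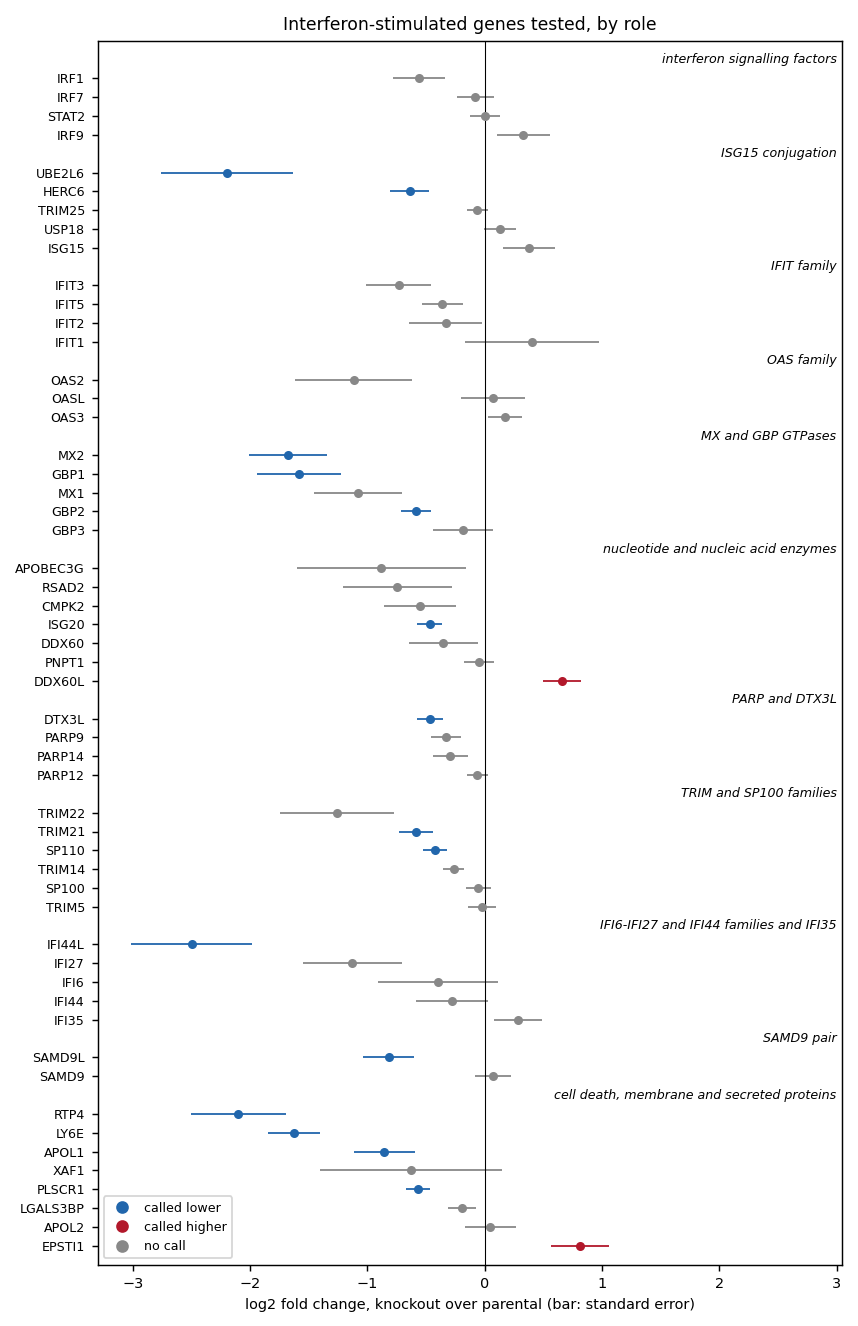
Log2 fold change of knockout over parental tumours for each of the 53 members tested, grouped by role, with the standard error as a bar and the call as colour. The 15 members called lower are spread over 8 of the 11 role groups, and the signalling factors, the IFIT family and the OAS family hold no called gene.

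None of the 4 factors on the list that carry the signal to these genes passed the test (27.0% of all genes did). STAT2, a subunit of the factor that binds the response element, was at 74.1, 89.8, 85.3 and 57.7 CPM in parental replicates 1 to 4 and at 79.1, 71.5, 73.5 and 83.7 CPM in knockout replicates 1 to 4. The knockout values lay inside the parental range, and the log2 fold change was 0.00 (SE 0.128, adjusted p = 0.984). IRF9, which gives the STAT pair its contact with DNA, was at 3.99, 4.35, 5.90 and 2.59 CPM against 4.49, 5.27, 5.88 and 5.51 CPM. IRF7, which amplifies the production of type I interferon, was at 26.9, 28.4, 24.7 and 21.6 CPM against 22.8, 19.1, 32.2 and 21.9 CPM, with knockout replicate 3 the highest of all 8. Log2 fold changes were 0.33 for IRF9 (adjusted p = 0.315) and -0.08 for IRF7 (adjusted p = 0.755). Exons of another gene cover 48.4% of the exonic length of IRF9 in GENCODE 29, so its count is uncertain, and the same holds to a lesser degree for XAF1 (38.3%), IRF1 (22.0%), TRIM22 (10.7%) and IFIT2 (10.3%).

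IRF1, the factor most closely tied to interferon gamma, was at 28.9, 44.6, 55.8 and 26.8 CPM in parental and at 22.99, 22.6, 29.7 and 30.6 CPM in knockout tumours. Parental replicates 2 and 3 stood above all others, and the other parental tumours fell within the knockout range. Its log2 fold change of -0.56 (SE 0.219, adjusted p = 0.0812) missed the threshold, and passed it without parental replicate 1 (-0.69, adjusted p = 0.0487) or parental replicate 4 (-0.71, adjusted p = 0.0256). Over the 16 alternatives the adjusted p ran from 0.0135 to 0.217.

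The ISG15 system attaches the ubiquitin-like protein ISG15 to other proteins. Of its 5 genes tested UBE2L6 and HERC6 fell (40%, against 14.1% of all genes) while the others had no call. ISG15 itself was at 4.87, 8.54, 6.88 and 6.17 CPM in parental and at 7.76, 6.63, 12.3 and 7.66 CPM in knockout tumours. The groups overlapped, and the highest value belonged to a knockout tumour (log2 fold change 0.38, SE 0.222, adjusted p = 0.241). UBE2L6, the conjugating enzyme that carries ISG15 to its targets (chr11:57551656-57568284, minus strand), was at 1.40, 7.67, 8.22 and 1.79 CPM in parental and at 1.12, 0.585, 1.21 and 1.21 CPM in knockout tumours. It fell (log2 fold change -2.20, SE 0.562, adjusted p = 0.0135), with no overlap between the groups. Parental replicates 2 and 3, the tumours with the highest leukocyte marker sums, stood far above the knockout range, and the other parental tumours just above it. The part of leukocyte RNA in this fall was not tested; adding the leukocyte score (the mean log2 CPM of 8 leukocyte markers) as a covariate gave -1.75 (adjusted p = 0.00166).

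HERC6, a relative of the ISG15 ligase HERC5 (chr4:88378739-88443111, plus strand), was at 12.8, 17.1, 16.7 and 12.0 CPM in parental and at 8.46, 9.26, 11.9 and 8.03 CPM in knockout tumours. The groups came close but did not overlap, and HERC6 fell (log2 fold change -0.64, SE 0.165, adjusted p = 0.0142). HERC5 was too sparse to test, with 0, 9, 7 and 1 counts in parental and 4, 3, 4 and 4 counts in knockout libraries. Its ratio of pooled parental to knockout counts, scaled for depth, was 1.12 (exact 95% interval 0.527 to 2.41, for counting error only; exact two-sided permutation p = 0.714). USP18, the protease that removes ISG15 and also restrains the type I receptor, had the smallest parental spread of the members, at 6.42, 7.08, 6.79 and 7.36 CPM against 7.10, 6.39, 8.54 and 8.26 CPM (log2 fold change 0.13, adjusted p = 0.519). TRIM25, a ubiquitin ligase that acts on the RNA sensor RIG-I, ranged over 110.5 to 135 CPM in parental and 112 to 126 CPM in knockout tumours.

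The IFIT proteins bind RNA whose 5′ end lacks the marks of the cell's own messages. None of the 4 genes was called, where 27.0% of all genes were. IFIT1 was at 1.04, 4.35, 2.19 and 1.32 CPM in parental and at 1.68, 1.22, 6.86 and 1.96 CPM in knockout tumours. Its level in knockout replicate 3 exceeded every other tumour, and the log2 fold change of 0.40 (SE 0.569, adjusted p = 0.648) turned to -0.45 without that tumour (adjusted p = 0.535). Over all alternatives the adjusted p of IFIT1 was 0.239 to 0.873. IFIT3 (-0.73), IFIT5 (-0.36) and IFIT2 (-0.33) had negative log2 fold changes, with adjusted p-values of 0.0706, 0.154 and 0.463. IFIT3 passed the threshold without parental replicate 4 (-0.90, adjusted p = 0.0267) or knockout replicate 3 (-0.94, adjusted p = 0.0375), and IFIT5 passed it without knockout replicate 3 (-0.55, adjusted p = 0.0232). Their adjusted p-values ran from 0.0123 to 0.178 and from 0.0232 to 0.338 over the alternatives.

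The OAS family makes the short oligoadenylates that switch on RNase L, apart from OASL, which lacks that activity, and 3 of its 4 listed genes were analysed here. None was called. OAS3, by level the main member, ranged over 165 to 238 CPM in parental and 177 to 263 CPM in knockout tumours (log2 fold change 0.18, adjusted p = 0.413). OAS2 was at 1.86, 7.76, 5.94 and 1.91 CPM in parental and at 2.06, 0.926, 3.36 and 1.68 CPM in knockout tumours. As for UBE2L6, parental replicates 2 and 3 stood above parental replicates 1 and 4, and its log2 fold change of -1.12 (SE 0.499) had an adjusted p of 0.125. For OAS2 the alternatives gave adjusted p-values of 0.0318 to 0.306, and it was called in the fit without a filter. OASL ranged over 1.40 to 3.22 CPM and 1.96 to 2.85 CPM (log2 fold change 0.07, adjusted p = 0.874).

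Of the 5 GTPases of the MX and GBP families, 3 fell (60%, against 14.1% of all genes). All 5 had negative log2 fold changes, as did the 4 PARP and DTX3L genes and the 6 of the TRIM and SP100 families. Of all genes tested, 49.5% were negative. Some of these family values were small, such as TRIM5 (-0.02), SP100 (-0.05) and PARP12 (-0.06). MX2, a dynamin-like GTPase that blocks retroviruses (chr21:41361943-41409390, plus strand), was at 4.76, 11.6, 7.86 and 4.51 CPM in parental and at 1.59, 2.29, 3.31 and 1.77 CPM in knockout tumours. Every knockout value was below every parental value, and the gene fell (log2 fold change -1.68, SE 0.336, adjusted p = 0.00335). MX1, its broader antiviral relative, was at 21.1, 60.5, 40.5 and 20.7 CPM against 14.1, 12.4, 29.2 and 11.8 CPM. Only knockout replicate 3 reached into the parental range. The log2 fold change of MX1 was -1.08 (SE 0.378, adjusted p = 0.0546), and it passed the threshold without that tumour (-1.48, adjusted p = 0.0139), without parental replicate 1 (-1.27, 0.0358) and without parental replicate 4 (-1.28, 0.0285). Its adjusted p ran from 0.00245 to 0.139 over the alternatives.

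GBP1 and GBP2 are guanylate-binding proteins that interferon gamma induces strongly in many cells. GBP1 (chr1:89052319-89065360, minus strand) was at 9.01, 20.5, 24.3 and 15.6 CPM in parental and at 3.97, 3.17, 6.35 and 9.62 CPM in knockout tumours. The highest knockout tumour passed the lowest parental tumour, and the log2 fold change was -1.59 (SE 0.357, adjusted p = 0.0068). GBP2 (chr1:89106132-89150456, minus strand) was at 102, 133, 148 and 106 CPM against 91.1, 84.9, 80.5 and 69.6 CPM, with no overlap (log2 fold change -0.59, SE 0.131, adjusted p = 0.00662). Exons of GBP7 cover 9.9% of the exonic length of GBP2. GBP3 ranged over 2.51 to 5.63 CPM and 3.22 to 3.97 CPM, with no call (-0.19, adjusted p = 0.636). The GBP genes are close paralogs, and the counting could have split their reads.

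Enzymes that act on nucleotides and nucleic acids gave 1 fall and 1 rise among 7 (14.3% each), close to the 14.1% and 13.0% of all genes. ISG20, an exonuclease for RNA (chr15:88636153-88656483, plus strand), was at 32.1, 35.2, 38.5 and 35.7 CPM in parental and at 28.7, 26.1, 21.4 and 26.0 CPM in knockout tumours. It fell by a small but even amount (log2 fold change -0.47, SE 0.106, adjusted p = 0.00727), and parental replicate 2 was not raised in it. DDX60L, a putative RNA helicase (chr4:168356735-168537786, minus strand), was at 15.02, 25.3, 15.8 and 16.3 CPM against 29.1, 28.0, 31.7 and 25.6 CPM. It rose (log2 fold change 0.66, SE 0.161, adjusted p = 0.0104) and was the only member tested whose knockout values all lay above the parental ones. Its neighbour DDX60 ranged over 10.9 to 25.3 CPM and 8.40 to 16.8 CPM and had no call (-0.35, adjusted p = 0.41).

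RSAD2, which encodes viperin and makes a chain-terminating nucleotide, and CMPK2, a mitochondrial nucleotide kinase encoded next to it, had no call. RSAD2 ranged over 0.680 to 2.59 CPM in parental and 0.701 to 1.63 CPM in knockout tumours (log2 fold change -0.74, adjusted p = 0.267), and CMPK2 had a log2 fold change of -0.55 (adjusted p = 0.218). APOBEC3G, a cytidine deaminase that mutates retroviral DNA, was at 0.518, 4.93, 2.64 and 0.255 CPM in parental and at 1.45, 1.71, 0.653 and 0.7002 CPM in knockout tumours. The parental values enclosed the knockout values, and the log2 fold change of -0.88 (SE 0.720, adjusted p = 0.401) became -0.02 without parental replicate 2. PNPT1, the mitochondrial polynucleotide phosphorylase, ranged over 57.7 to 85.2 CPM and 59.5 to 76.2 CPM, with no call (-0.05, adjusted p = 0.813).

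PARP9 and DTX3L form a complex that couples ADP-ribosylation to ubiquitin, and their genes start head to head. DTX3L (chr3:122564238-122575203, plus strand) was at 84.1, 91.8, 90.4 and 99.8 CPM in parental and at 65.7, 63.5, 80.2 and 55.4 CPM in knockout tumours. It fell without overlap (log2 fold change -0.47, SE 0.112, adjusted p = 0.00969). PARP9 ranged over 44.5 to 57.4 CPM and 34.5 to 52.0 CPM. Its log2 fold change was -0.33 (adjusted p = 0.0871), and it passed the threshold without knockout replicate 3 (-0.46, adjusted p = 0.0209; 0.0209 to 0.224 over the alternatives). The mono-ADP-ribosyltransferases PARP14 (-0.30, adjusted p = 0.172) and PARP12 (-0.06, adjusted p = 0.646) had no call.

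Among the 6 genes of the TRIM and SP100 families, TRIM21 and SP110 fell (33.3%, against 14.1% of all genes). TRIM21, a receptor for antibody-coated particles inside the cell (chr11:4384897-4393696, minus strand), was at 10.0, 11.8, 13.2 and 14.1 CPM in parental and at 7.34, 8.39, 9.47 and 7.56 CPM in knockout tumours (log2 fold change -0.59, SE 0.142, adjusted p = 0.0101). SP110, a nuclear body protein (chr2:230167293-230225729, minus strand), was at 24.2, 26.4, 29.3 and 26.0 CPM against 18.1, 20.1, 22.6 and 18.2 CPM (log2 fold change -0.42, SE 0.105, adjusted p = 0.0116). Neither gene overlapped between the groups, although exons of other genes cover 20.9% of the exonic length of SP110. TRIM14, an adaptor of antiviral signalling, did not overlap either (48.3 to 55.5 CPM against 38.4 to 46.3 CPM) and lay just past the threshold (-0.26, SE 0.0899, adjusted p = 0.0503). It was called without knockout replicate 3 (-0.31, adjusted p = 0.0469), and its adjusted p ran from 0.0333 to 0.152 over the alternatives.

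TRIM22, an antiviral ubiquitin ligase, was at 1.19, 4.05, 4.69 and 0.935 CPM in parental and at 1.45, 1.12, 1.12 and 0.840 CPM in knockout tumours. Only parental replicates 2 and 3 stood apart from the knockout tumours. The log2 fold change of -1.26 (SE 0.485, adjusted p = 0.0781) passed the threshold without parental replicate 1 (-1.51, adjusted p = 0.0407) or parental replicate 4 (-1.56, 0.0185), with a range of 0.00613 to 0.228 over the alternatives. SP100, the founding protein of these nuclear bodies, and TRIM5, which recognises retroviral capsids, had log2 fold changes of -0.05 and -0.02, with adjusted p-values of 0.751 and 0.903.

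IFI44L had the largest change of all members. This gene of poorly known function (chr1:78619922-78646145, plus strand) was at 3.21, 11.3, 6.61 and 3.70 CPM in parental and at 0.841, 0.585, 2.38 and 0.560 CPM in knockout tumours. The groups did not overlap, and its log2 fold change was -2.50 (SE 0.516, adjusted p = 0.0041). Its neighbour and paralog IFI44 ranged over 4.25 to 12.3 CPM and 5.17 to 9.71 CPM, with no call (-0.28, adjusted p = 0.542). IFI27, a mitochondrial membrane protein, was at 24.5, 80.4, 47.0 and 36.9 CPM against 15.98, 9.70, 40.7 and 19.9 CPM. Knockout replicate 3 again lay inside the parental range, and the log2 fold change of -1.13 (SE 0.422, adjusted p = 0.0698) passed the threshold without that tumour (-1.63, 0.012) or without parental replicate 1 (-1.35, 0.0404). For IFI27 the alternatives gave adjusted p-values of 0.00378 to 0.175.

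IFI6, a relative of IFI27, was at 4.45, 18.9, 9.38 and 6.89 CPM in parental and at 6.07, 2.68, 15.7 and 5.51 CPM in knockout tumours. Its spread within each group was wider than the difference between them (-0.40, SE 0.512, adjusted p = 0.609). IFI35 ranged over 5.13 to 10.16 CPM and 8.36 to 11.01 CPM (0.28, adjusted p = 0.35). In the SAMD9 pair, whose proteins restrain translation and viral growth, SAMD9L (chr7:93130055-93148369, minus strand) was at 13.7, 25.1, 22.6 and 15.2 CPM in parental and at 9.39, 8.58, 14.3 and 11.02 CPM in knockout tumours. It fell (log2 fold change -0.82, SE 0.218, adjusted p = 0.0162), with knockout replicate 3 just above parental replicate 1. The call was lost without knockout replicate 1 (-0.75, adjusted p = 0.0512) and without knockout replicate 2 (-0.72, 0.0526), with a range of 0.000803 to 0.0526 over the alternatives. SAMD9 had no call (0.07, adjusted p = 0.771).

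Proteins of membranes, secretion and cell death gave 4 falls and 1 rise among 8 (50% and 12.5%, against 14.1% and 13.0% of all genes). RTP4, a Golgi chaperone of cell-surface receptors (chr3:187368332-187372076, plus strand), was at 1.29, 2.15, 1.56 and 0.765 CPM in parental and at 0.140, 0.439, 0.327 and 0.420 CPM in knockout tumours. It fell without overlap (log2 fold change -2.10, SE 0.404, adjusted p = 0.00267), at a level too low for the stricter filter of at least 1 CPM in 4 libraries. Its counts were 25, 44, 35 and 18 in parental and 3, 9, 7 and 9 in knockout libraries. RTP4 thus passed the count filter only through the parental tumours, and the size of its fall is uncertain. LY6E, a lipid-anchored surface protein (chr8:143017982-143023832, plus strand), was at 70.2, 47.6, 90.1 and 88.5 CPM against 18.0, 20.9, 24.5 and 32.8 CPM. It had the smallest p of the members (log2 fold change -1.62, SE 0.222, adjusted p = 0.00028), and here parental replicate 2 was the lowest parental tumour rather than the highest. PLSCR1, a phospholipid scramblase (chr3:146515180-146544864, minus strand), was at 54.2, 54.8, 63.7 and 58.9 CPM against 37.1, 41.8, 43.5 and 33.4 CPM, a fall without overlap (log2 fold change -0.57, SE 0.102, adjusted p = 0.00166).

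APOL1, an apolipoprotein of serum known for killing trypanosomes (chr22:36253010-36267530, plus strand), was at 230.5, 481, 406 and 180.5 CPM in parental and at 198, 178, 192 and 149 CPM in knockout tumours. Parental replicates 2 and 3 stood far above the rest, and parental replicate 4 lay among the knockout values. APOL1 fell overall (log2 fold change -0.86, SE 0.261, adjusted p = 0.0312). That call held in only 2 of the 8 fits that left out 1 tumour: it was lost without parental replicate 2 (-0.60, adjusted p = 0.068), parental replicate 3 (-0.73, 0.0786) or any of knockout replicates 1 to 4 (-0.91, -0.85, -0.89 and -0.77, with adjusted p-values of 0.0553, 0.0724, 0.0607 and 0.0861). Adding the leukocyte score gave -0.73 (adjusted p = 8.48e-05), the lowest adjusted p of its alternatives. APOL2, an intracellular relative encoded beside it, had no call (0.05, adjusted p = 0.895).

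EPSTI1, first described in epithelial cells in contact with stroma (chr13:42886388-42992271, minus strand), was at 2.54, 4.83, 2.64 and 2.34 CPM in parental and at 5.28, 4.24, 6.02 and 6.12 CPM in knockout tumours. It rose (log2 fold change 0.81, SE 0.244, adjusted p = 0.0288), with parental replicate 2 above the lowest knockout tumour. The call held without parental replicate 2 and without knockout replicate 2, and was lost without parental replicates 1, 3 or 4 (0.73, 0.74 and 0.69, adjusted p-values 0.0785, 0.0695 and 0.0675) or knockout replicates 1, 3 or 4 (0.83, 0.76 and 0.75, adjusted p-values 0.0585, 0.0762 and 0.0704). Over the alternatives its adjusted p ran from 0.00139 to 0.0785. XAF1, a partner of the apoptosis inhibitor XIAP, was at 0.466, 7.81, 3.26 and 0.340 CPM in parental and at 1.68, 0.780, 2.24 and 2.94 CPM in knockout tumours. Its parental values enclosed the knockout ones, and the log2 fold change of -0.63 (SE 0.774, adjusted p = 0.593) turned to 0.48 without parental replicate 2 (adjusted p = 0.628). LGALS3BP, a secreted galectin-binding glycoprotein, ranged over 857 to 1307 CPM and 833 to 984 CPM with no call (-0.19, adjusted p = 0.271).

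**Figure D2:**
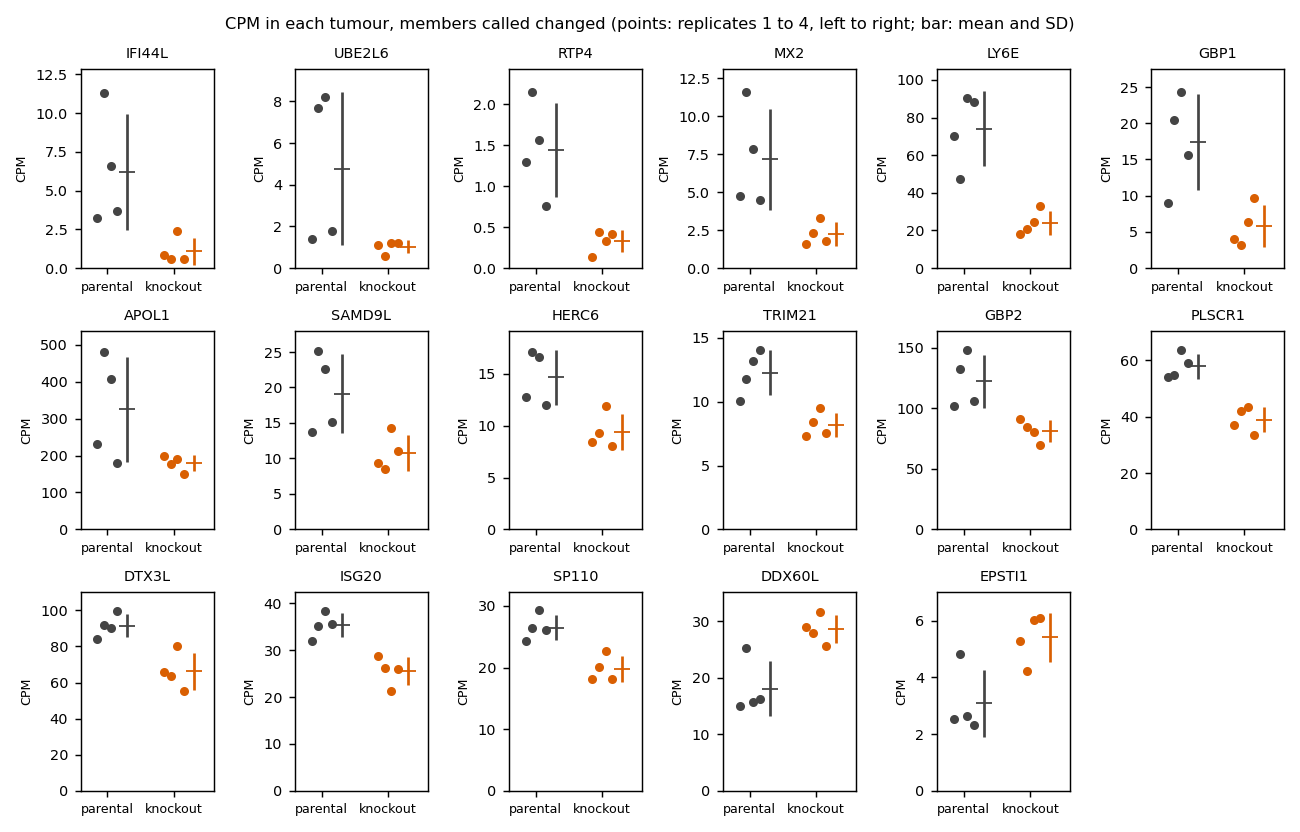
CPM of the 17 called members in each tumour (vertical axis, from 0), with the 4 replicates as points from left to right and the mean and SD as a bar. IFI44L, UBE2L6, MX2 and APOL1 were highest in parental replicates 2 and 3, while ISG20, PLSCR1, DTX3L and SP110 show a small gap between tight groups.

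Several members are neighbours, and paralogs except for DTX3L and PARP9. The ratio within a pair takes out only what a tumour adds equally to both genes. Differences between tumours can remain in it, as for TRIM22 relative to TRIM5 (-3.33, -1.81, -1.39 and -3.67 in parental replicates 1 to 4). These pairs were chosen after the values were seen, and the differences were not tested. The log2 ratio of IFI44L to IFI44 was -0.77 to -0.11 in parental and -3.24 to -1.99 in knockout tumours, so the fall of IFI44L went well beyond its neighbour in every tumour. SAMD9L relative to SAMD9 was at -1.72 to -1.09 against -2.62 to -1.95, and APOL1 relative to APOL2 at 1.76 to 2.17 against 0.93 to 1.32. In the APOL pair the ratio set the groups apart although the CPM of APOL1 itself overlapped. DDX60L relative to DDX60 went the other way, from 0.00 to 0.55 in parental to 0.92 to 1.598 in knockout tumours. MX2 relative to MX1 (-2.37 to -2.12 against -3.10 to -2.39) and GBP1 relative to GBP3 (1.44 to 2.59 against -0.02 to 1.29) did not overlap either, whereas DTX3L relative to PARP9, SP110 relative to SP100 and TRIM22 relative to TRIM5 did.

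Tumours of the same group differed widely in these genes. The SD of log2 CPM over 4 tumours had a median of 0.47 for the members in the parental and 0.25 in the knockout group, against 0.22 and 0.17 over all genes tested. The SD was larger in the parental group for 35 of the 53 members (66.0%), a share close to the 65.0% of all genes. Among the 27 members in the middle range of level it was 55.6%, against 65.4% of all genes in that range. XAF1 (SD 2.02), APOBEC3G (1.80) and UBE2L6 (1.31) were the most variable among parental tumours, and IFIT1 (1.06), IFI6 (1.03) and IFI44L (0.90) among knockout tumours. At the other end, USP18, TRIM5 and TRIM14 had parental SDs of 0.0829, 0.0923 and 0.0957.

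**Figure D3:**
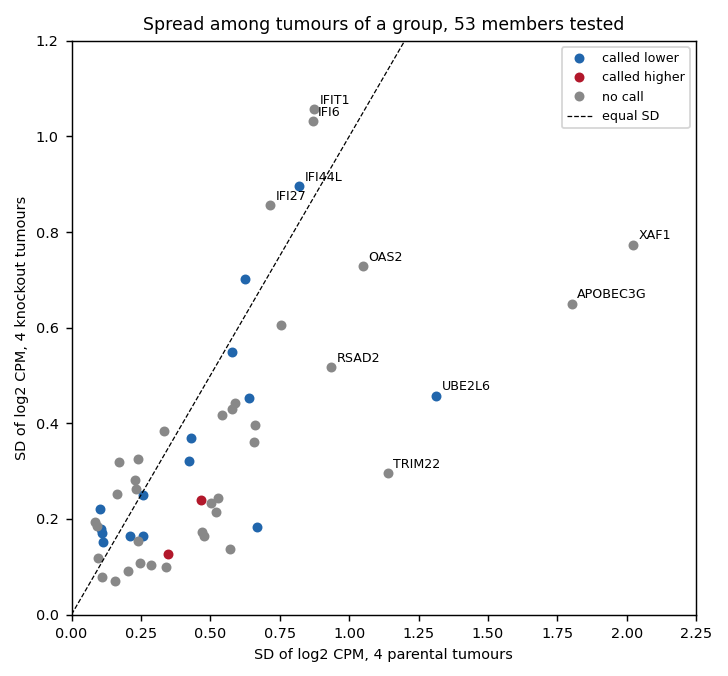
SD of log2 CPM over the 4 parental tumours (horizontal axis) against that over the 4 knockout tumours (vertical axis) for the 53 members tested, coloured by call, with a dashed line where the SDs are equal. XAF1, APOBEC3G, UBE2L6 and TRIM22 lie far to the right, and IFIT1 and IFI6 are at the top.

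Called and uncalled members differed little in spread, with median SDs of 0.42 and 0.24 in parental and knockout tumours for the called and 0.49 and 0.27 for the uncalled. Of the called members, 8 changed by less than 0.7 on the log2 scale, with median SDs of 0.16 in parental and 0.17 in knockout tumours. The 4 uncalled members with an absolute log2 fold change above 1 (TRIM22, IFI27, OAS2 and MX1) had median SDs of 0.90 and 0.67. Calls were also made among the most variable members, since UBE2L6 (parental SD 1.31) and IFI44L (SDs 0.82 and 0.90) fell by large amounts.

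The variation was shared between genes. Parental replicate 2 was the highest parental tumour for 35 of the 53 members (66.0%, against 29.6% of all genes). Parental replicate 3 was the highest for 14 (26.4%, close to the 24.6% of all genes). Parental replicates 1 and 4 were the lowest for 26 (49.1%, against 18.1% of all genes) and 23 (43.4%, against 31.0%). Among knockout tumours, replicate 3 was the highest for 35 members (66.0%, against 18.7% of all genes) and the lowest for 2. The median deviation of the members from their group mean was 0.39 in parental replicate 2, 0.19 in parental replicate 3 and 0.22 in knockout replicate 3, and between -0.28 and -0.08 in the other 5 tumours. Over all genes tested this median stayed between -0.01 and 0.01 in each tumour.

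Correlations between members across the 8 tumours, taken on deviations from the group means, had a median of 0.56 over 1378 pairs, and 87.4% were positive. The points share libraries and depth, and the values describe these tumours only. No such median over all genes is given here to set them against. OAS2 (0.77), MX1 (0.74), OASL (0.74), IFIT3 (0.73) and RSAD2 (0.73) had the highest median correlation with the other members. These are classical targets of type I interferon, and none was called. LY6E (-0.21), ISG20 (-0.16) and PNPT1 (-0.15) had the lowest. LY6E and ISG20 fell in knockout tumours without following most of the others from tumour to tumour. PLSCR1 (0.19), TRIM21 (0.22) and DTX3L (0.29) also fell and followed the others only weakly.

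**Figure D4:**
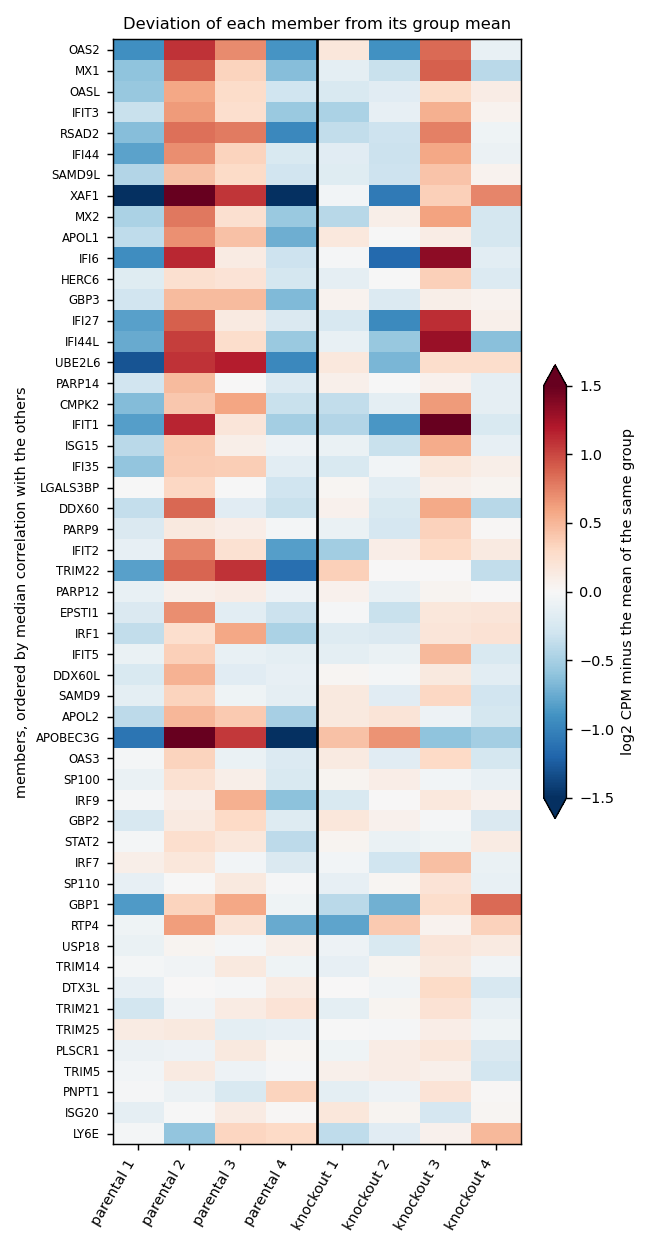
Log2 CPM of each of the 53 members minus the mean of its group (colour), in 4 parental and 4 knockout tumours (columns), with members ordered by their median correlation with the others from 0.77 at the top to -0.21 at the bottom. Parental replicates 2 and 3 and knockout replicate 3 are mostly red. In the lowest rows parental replicate 2 is pale or blue.

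Markers of other cells were compared with this order. Parental replicates 2 and 3 had leukocyte sums of 64.6 and 51.0 CPM against 11.8 and 9.69 CPM in parental replicates 1 and 4, the same division as in the members. In knockout replicate 3 the leukocyte sum of 21.6 CPM was within the range of the other knockout tumours (15.7 to 29.8 CPM). The 8 fibroblast markers (COL1A1, COL1A2, COL3A1, DCN, LUM, PDGFRA, PDGFRB and THY1) summed to 349, 607, 347 and 179 CPM in parental and to 587, 343, 603 and 376 CPM in knockout tumours. The maximum of each group was in parental replicate 2 and knockout replicate 3. Most of each sum was COL1A1, at 572 CPM in parental replicate 2 and 565 CPM in knockout replicate 3. Only COL1A1, COL1A2 and COL3A1 had both maxima in these tumours. LUM was highest in parental replicate 4 (0.638 CPM) and knockout replicate 4 (15.5 CPM). The 6 endothelial markers (PECAM1, CDH5, VWF, KDR, TEK and ESAM) summed to 7.41 to 18.4 CPM in parental and 9.06 to 15.5 CPM in knockout tumours. The 8 skeletal muscle markers (ACTA1, CKM, MYH1, MYH2, MYH4, TNNT3, MYLPF and ATP2A1) reached 37.4 CPM in parental replicate 2, against 0.607 to 16.4 CPM elsewhere. No marker of these lists was at 0 in all libraries. Of the single markers tested in these lists, the fibroblast marker LUM, a matrix proteoglycan, was higher in knockout tumours (log2 fold change 5.00) and the endothelial VWF lower (-2.37). The part of these cells in the level of the members was not tested. In the fit with the leukocyte score all 17 calls were kept and IRF1, IFIT3, MX1, TRIM14 and TRIM22 were added as lower, while the median log2 fold change of the members was -0.26.

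Relative to exonic length in GENCODE 29, levels of the members covered a wide range. LGALS3BP was the most abundant at 298 CPM per kilobase in parental and 260.0 in knockout tumours, followed by APOL1 at 92.2 and 50.9, LY6E at 28.1 and 9.11, OAS3 at 23.2 and 26.2 and APOL2 at 22.7 and 23.5 CPM per kilobase. LY6E thus moved from above to below OAS3 and APOL2. HERC5 was the least abundant in both groups (0.0417 and 0.0371 CPM per kilobase), followed by RSAD2 in parental tumours (0.344) and by IFI44L in knockout tumours (0.107). Annotated exonic length can exceed the transcript in use, which would understate a level.

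Genes upstream of the members were read from a separate list of 31 ligands, receptors, kinases, factors and inhibitors. Of the 23 tested, 4 passed the test (17.4%, below the 27.0% of all genes), and the 3 that rose are given here. Interferon transcripts were scarce: of 9 ligand genes only IFNE, which encodes an epithelial type I interferon, was tested, at 1.92 to 3.71 CPM in parental and 1.77 to 5.32 CPM in knockout tumours (log2 fold change 0.10, adjusted p = 0.86). IFNA1, IFNB1 and IFNL2 were at 0 counts throughout, a result that leaves room for at most 3 counts per gene and library. IFNLR1, the specific chain of the type III interferon receptor, was at 5.75, 8.10, 4.78 and 4.12 CPM in parental and at 14.0, 11.1, 12.6 and 13.2 CPM in knockout tumours and rose (log2 fold change 1.16, SE 0.195, adjusted p = 0.0011). IFNGR1, the binding chain of the interferon gamma receptor, rose by 0.45 (99.2 to 126 against 127 to 174 CPM, adjusted p = 0.0136). The groups of these receptors did not overlap.

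SOCS3, a feedback inhibitor of cytokine receptors, rose by 0.45 on the log2 scale (35.1 to 53.6 against 53.6 to 64.8 CPM, adjusted p = 0.0207). The kinases JAK1, JAK2 and TYK2 and the factor STAT3 had no call. Neither the type I receptor genes IFNAR1 (-0.04, adjusted p = 0.843) and IFNAR2 (-0.32, adjusted p = 0.124) nor IL10RB (0.48, adjusted p = 0.24) passed the threshold.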

How the data were processed

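RNA sequencing counts of 4 parental and 4 SMARCA4 knockout tumours were analysed. The authors deposited raw read counts per gene symbol, 1 file per tumour; the submitters' processing notes name TopHat2 2.1.1, HTSeq 0.11.0 and hg38. The annotation, strandedness and any removal of mouse reads are not given in the sources used here. Each file holds 59050 symbols and 5 summary lines (14.8% to 20.9% of reads), which were left out. Labels do not say whether tumours came from separate animals, so p-values measure the spread between these samples.

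Genes were filtered by filterByExpr (minimum count 10, minimum total 15), scaled by TMM and tested over 16219 genes with edgeR 4.0.16 (R 4.3.3), quasi-likelihood F-test, no covariate, Benjamini-Hochberg adjustment, threshold 0.05; the code was tested on simulated data. Log2 CPM used a prior count of 2. Alternatives were DESeq2 1.42.0, limma-voom (limma 3.58.1), RLE and upper-quartile scaling, 2 other filters, a replicate block, a leukocyte covariate and leaving out each tumour. Members, lists and tests were chosen with earlier results of these data known. Values in every tumour are given for called members and for STAT2, IRF9, IRF1, IRF7, ISG15, USP18, MX1 and IFIT1. They are also given for the 3 uncalled members with the largest change and the 3 most variable members of each group. Pathway genes called higher are named, and others outside this rule were chosen after their values were seen. Gene positions are from GENCODE 29 (GRCh38), matched by symbol. Some genes of these lists are not reported here.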

Additional observations from a re-analysis of the deposited data

Results flagged for a closer look

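For each of 54 members, the highest or lowest tumour of each group was compared with the other 3 tumours by Dixon's ratio, and 14 of 108 sets of values stood apart (13.0%, where chance gives about 5% and the members vary together). Knockout replicate 3 stood above the other knockout tumours in 4 members. It was at 6.86 CPM for IFIT1 (others 1.22 to 1.96), 29.2 CPM for MX1 (11.8 to 14.1), 23.6 CPM for IFIT5 (14.4 to 15.7) and 2.38 CPM for IFI44L (0.560 to 0.841). Parental replicate 2 stood above the other parental tumours in 5 members. It was at 28.1 CPM for IFIT5 (others 19.7 to 20.4), 25.3 CPM for DDX60 (10.9 to 12.3), 25.3 CPM for DDX60L (15.02 to 16.3), 63.3 CPM for SAMD9 (45.3 to 48.1) and 4.83 CPM for EPSTI1 (2.34 to 2.64).

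The remaining 5 were scattered. Knockout replicate 2 was low for UBE2L6 (0.585 CPM, 12 counts, others 1.12 to 1.21), for GBP3 (3.22 CPM, others 3.87 to 3.97) and for HERC5 (0.146 CPM, which is 3 counts). Knockout replicate 4 was low for TRIM5 at 10.6 CPM (others 13.6 to 13.9), and parental replicate 3 was high for TRIM14 at 55.5 CPM (others 48.3 to 49.5).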

How the results depend on the processing

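Across the 16 alternatives set for this test, 14 to 23 members were called, and none of the 17 called members turned direction. Leaving out 1 tumour gave 14 to 21 calls and a median log2 fold change of the members of -0.51 to -0.11, and 3 to 5 calls among the other pathway genes. DESeq2 called 21 of 54 members tested, and 22.9% of all genes it tested. Limma-voom called 15 members, no filter 23 and the stricter filter 16. Shares of all genes called are not given here for the other fits, so a changed count may also reflect more or fewer calls among all genes. Replicate numbers did not pair the tumours (correlations of same-numbered tumours -0.19 to 0.09 over genes, not each tumour's best match), and the replicate block gave 17 calls, 16 shared, losing EPSTI1 (adjusted p = 0.0571) and adding MX1 (0.0322). Without parental tumour 2 and knockout tumour 3, added after the data were seen, 19 members were called. UBE2L6 lost its call by limma-voom (-1.82, adjusted p = 0.0681; 0.000153 to 0.0681 over its alternatives). The share of promoters with the longer core was 45.2%. Among the uncalled genes, 12 turned direction in at least 1 alternative; the cause was not tested. These were STAT2 (-0.013 by DESeq2, -0.0034 by RLE scaling, -0.016 without a filter), TRIM5 (0.010 by upper-quartile scaling) and XAF1 (0.28 by limma-voom, 0.059 with the replicate block, 0.41 with the leukocyte covariate). Leaving out 1 tumour gave STAT2 -0.12 to 0.088, APOL2 -0.11 to 0.22, DDX60 -0.58 to 0.026, IFI6 -1.05 to 0.11, IFIT1 -0.45 to 0.94, IRF7 -0.25 to 0.019, OASL -0.10 to 0.30, PNPT1 -0.13 to 0.069, SAMD9 -0.042 to 0.19, SP100 -0.13 to 0.027, TRIM5 -0.061 to 0.062 and XAF1 -1.01 to 0.48. Low members rest on few counts, as the 12 counts of UBE2L6 in knockout replicate 2 show.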
